A study of Mus musculus with 9 samples.

Results

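The voltage-gated sodium and calcium channel genes were taken as every row of the deposited gene table whose symbol begins with Scn, a number and a or b, or with Cacna, Cacnb or Cacng. This gave 38 of 21210 genes: sodium channel pores and beta subunits, calcium channel pores, alpha2delta and beta subunits, and the gamma family. They were measured by RNA sequencing of polyadenylated RNA in 3 cell populations sorted from the lateral cortex of mouse embryos of the strain C57BL/6 at embryonic day 14.5, with 3 libraries per population. Proliferating progenitors were negative for the Btg2 reporter, differentiating progenitors were positive for it, and neurons were positive for the Tubb3 reporter. All 3 populations carried both reporters, written Btg2GFP/Tubb3GFP in the genotype label, although the titles describe the Btg2 gate as red (RFP), and each library pooled cells from several embryos of different litters. Nothing in the labels says whether libraries of 1 population came from separate sorts, so p-values measure the spread between these libraries.

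A voltage-gated channel opens when the membrane depolarises, through a large pore subunit that also carries the voltage sensor. Sodium channels drive the upstroke of the action potential, and their beta subunits shape gating and surface adhesion. Calcium channels admit the calcium that triggers transmitter release and calcium-dependent transcription. Those of the L, P/Q, N and R types need a cytoplasmic beta subunit and an extracellular alpha2delta subunit to reach the membrane in number. Most gamma genes encode proteins that traffic AMPA-type glutamate receptors rather than calcium channel subunits.

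Values are the authors' normalised read counts, rounded to whole numbers, and they summed to 17531558 to 22076409 per library. The sort was checked on both reporter genes and on marker lists. Btg2 had 8952, 7032 and 9336 normalised reads in proliferating progenitors, 14022, 14635 and 19983 in differentiating progenitors, then 3299, 2645 and 3390 in neurons, so the Btg2-negative gate still held Btg2 RNA. Tubb3 had 2511, 1557 and 1158 normalised reads in proliferating progenitors, 10937, 13097 and 9711 in differentiating progenitors, then 50230, 48666 and 39932 in neurons. Markers were matched by symbol alone, so a marker listed under another symbol would be missed. Of 8 neuronal markers 6 were found by symbol. Their summed level was 2049 to 5739 in proliferating progenitors, 30094 to 36886 in differentiating progenitors and 139372 to 165576 in neurons. All 8 radial glia markers were in the table and ran the other way, with sums of 104199 to 122277, then 46275 to 69360, then 5732 to 7096. In sorted bulk RNA, a change in the share of cells that express a gene and a change of RNA per cell cannot be told apart.

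Of the 38 channel genes, 32 passed the filter of at least 10 normalised reads in at least 3 libraries. Differences are log2 changes of the normalised read count plus a pseudocount of 1, tested with limma over all 15828 genes that passed, with Benjamini-Hochberg adjustment and a threshold of 0.05. Among the tested channel genes 6 passed only through the population in which they were highest, among them Cacna1s through differentiating progenitors and Cacng2, Cacna1i, Scn9a and Cacng3 through neurons. These 6 had to differ between populations, so their calls add nothing to the counts. The other 26 passed without their highest population.

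To show where these genes start, 4 promoters are printed from RefSeq on build GRCm38.p6, each 300 bases in length, with 250 before the start and 50 after it. The first belongs to Cacna1s, which was highest in differentiating progenitors, and the other 3 to genes that rose steeply from differentiating progenitors to neurons. Capitals mark E-boxes, the CANNTG pattern bound by proneural basic helix-loop-helix factors, which reads the same on both strands.
Cacna1s (chr1:136052561-136052860, plus strand): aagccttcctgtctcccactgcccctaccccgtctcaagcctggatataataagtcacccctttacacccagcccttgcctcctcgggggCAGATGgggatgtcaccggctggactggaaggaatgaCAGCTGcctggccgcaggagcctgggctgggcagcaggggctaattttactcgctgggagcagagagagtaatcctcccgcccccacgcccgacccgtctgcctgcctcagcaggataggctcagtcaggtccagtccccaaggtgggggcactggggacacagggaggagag
Cacna1e (chr1:154725871-154726170, minus strand): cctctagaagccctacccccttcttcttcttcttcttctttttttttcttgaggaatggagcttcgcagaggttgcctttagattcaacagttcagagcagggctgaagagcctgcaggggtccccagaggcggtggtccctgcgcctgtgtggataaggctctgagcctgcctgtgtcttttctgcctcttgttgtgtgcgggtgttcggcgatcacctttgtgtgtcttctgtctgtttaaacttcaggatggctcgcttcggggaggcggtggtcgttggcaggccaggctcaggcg
Cacng2 (chr15:78119231-78119530, minus strand): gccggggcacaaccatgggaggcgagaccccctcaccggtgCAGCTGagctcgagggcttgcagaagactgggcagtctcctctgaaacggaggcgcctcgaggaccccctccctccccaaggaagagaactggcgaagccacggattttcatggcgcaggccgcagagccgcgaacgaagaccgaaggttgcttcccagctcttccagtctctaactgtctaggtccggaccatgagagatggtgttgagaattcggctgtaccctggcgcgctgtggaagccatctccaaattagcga
Cacna1i (chr15:80286988-80287287, plus strand): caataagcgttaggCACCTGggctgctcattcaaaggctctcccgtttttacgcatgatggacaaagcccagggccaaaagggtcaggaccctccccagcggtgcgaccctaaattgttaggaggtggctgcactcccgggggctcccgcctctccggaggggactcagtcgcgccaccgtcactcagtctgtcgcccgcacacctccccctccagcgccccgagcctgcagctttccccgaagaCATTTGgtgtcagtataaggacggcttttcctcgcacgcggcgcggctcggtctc
The Cacna1s and Cacna1i windows each held 2 E-boxes, the Cacng2 window held 1 and the Cacna1e window held 0. Over the 39 promoters found for 28 channel genes, 66.7% held an E-box, against 72.3% of all 32851 promoters in the table. The pattern is common, and a match describes letters only. The channel promoters had a median of 9 CG dinucleotides and a GC content of 59.7%, against 7 and 52.7% over all promoters.

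Channel genes rose at both steps of the lineage, and most rose further at the second. Between differentiating and proliferating progenitors, 20 of the 32 tested genes rose (13.8% of all tested genes rose), 2 fell (11.1% of all fell) and 10 did not pass, with a median log2 change of 0.79 beside -0.02 over all genes. Between neurons and differentiating progenitors, 27 rose (27.6% of all rose), 4 fell (26.4% of all fell) and 1 did not pass, with a median of 2.45 beside -0.01. Between neurons and proliferating progenitors, 28 rose (32.2% of all) and 4 fell (31.1% of all), with a median of 3.45 beside -0.02. Without the 6 genes that passed only through their highest population, 17 of 26 rose and 2 fell at the first step, and 22 rose and 3 fell at the second. The shares over all genes were not computed with that restriction, so they are not matched to these counts. The first-step count of rises was 16 to 19 when 1 library was left out and 15 in a fit of the 2 progenitor populations alone. By the authors' deposited adjusted p it was 16, as Cacna1e (0.28), Cacna1c (0.068), Cacna1i (0.059) and Cacnb1 (0.056) did not pass. The first-step count of falls moved with single libraries: it was 1 without proliferating progenitor replicate 1 or 3 or differentiating progenitor replicate 2 or 3, and 4 when libraries of the same replicate number were paired.

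**Figure D1:**
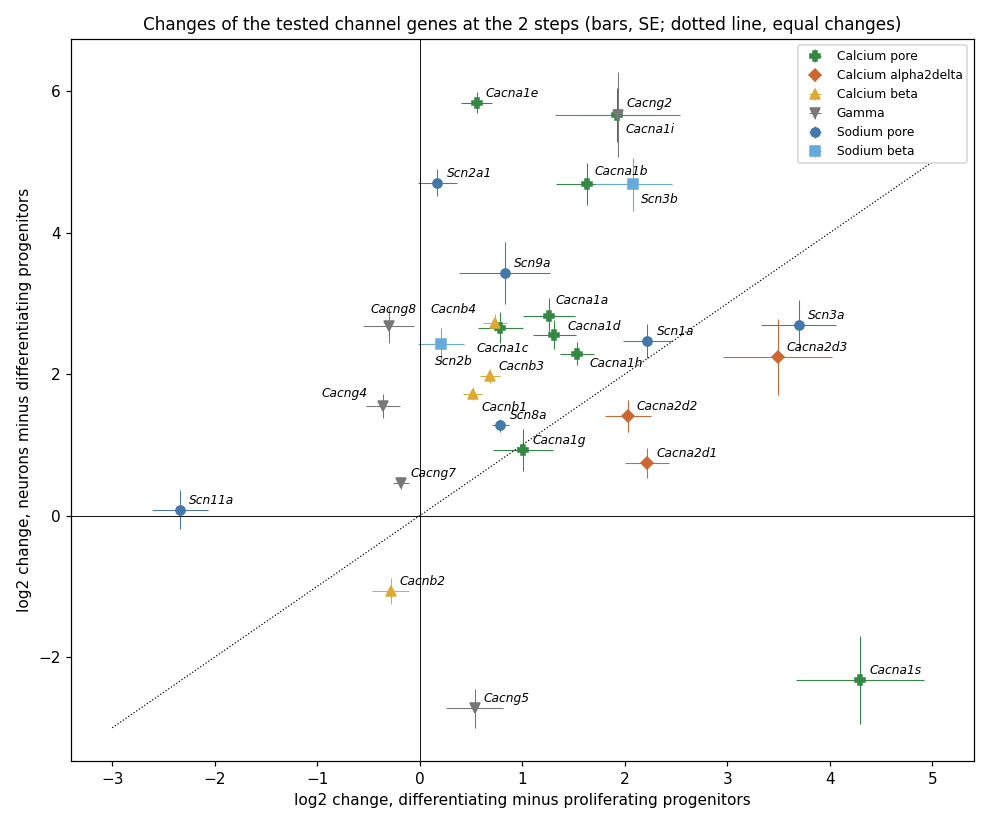
Log2 change between differentiating and proliferating progenitors (horizontal) against the change between neurons and differentiating progenitors (vertical) for the tested channel genes described here, with standard errors. Points above the dotted line had a higher signed log2 change at the second step than at the first. For genes that fell, the side of the line does not show which change was larger in size. Cacna1e sits near the top at 5.84, Cacna1s alone in the lower right, and Scn11a on the left. Cacng3, listed at 0 in every differentiating progenitor library, is not drawn.

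The plot of the 2 steps shows how the genes split. Cacna1e and Scn2a1 lay far above the line of equal change. The alpha2delta genes lay below it, although among them the difference between the steps passed for Cacna2d1 alone in the main fit. Both axes share the differentiating progenitor libraries, so variation in those libraries moves a point on both.

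Sodium channel pores took opposite courses. Scn1a, Scn2a1, Scn3a and Scn9a, all on chromosome 2, rose from progenitors to neurons, as did the widely expressed Scn8a on chromosome 15. Scn11a on chromosome 9, known from pain-sensing neurons, fell.

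Scn3a encodes the sodium channel pore typical of embryonic brain. It had 65, 45 and 21 normalised reads in proliferating progenitors, 379, 657 and 578 in differentiating progenitors, then 3259, 3577 and 3338 in neurons. The 3 populations did not overlap, and the second stage already reached 15.9% of the neuronal mean. The log2 change was 3.69 ± 0.36 (SE, limma adjusted p = 0.000144) between differentiating and proliferating progenitors and 2.69 ± 0.36 (adjusted p = 0.00019) between neurons and differentiating progenitors. Among proliferating progenitors the library order of Scn3a followed that of the neuronal marker sums, 5739, 2949 and 2049. Scn1a, Scn3b, Cacna2d2 and Cacng4 had the same order. Other rising genes, among them Cacna1c, Cacna1e, Cacnb3, Scn2b and Cacna2d3, had the reverse order. The part of neurons left in this gate in any channel level was not tested.

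Scn1a encodes a pore later prominent in inhibitory interneurons. It had 53, 36 and 28 normalised reads in proliferating progenitors, 143, 217 and 185 in differentiating progenitors, then 998, 1030 and 956 in neurons. Its populations also stood apart, and the changes at the 2 steps were close, 2.22 ± 0.24 (limma adjusted p = 0.000226) and then 2.47 ± 0.24 (adjusted p = 2.07e-05).

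Scn2a1, the symbol the table gives to Scn2a, encodes the main pore of the early axon initial segment. It had 32, 34 and 33 normalised reads in proliferating progenitors, 34, 49 and 31 in differentiating progenitors, then 940, 1092 and 966 in neurons. The progenitor populations overlapped (log2 change 0.17 ± 0.19, limma adjusted p = 0.6), and neurons stood far above differentiating progenitors (4.71 ± 0.19, adjusted p = 1.31e-07). Thus Scn2a1 was at 3.8% of its neuronal mean in differentiating progenitors, while its neighbour Scn3a was at 15.9%.

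Scn9a, another peripheral pain channel, was low. It had 6, 1 and 4 normalised reads in proliferating progenitors, 6, 6 and 7 in differentiating progenitors, then 71, 92 and 72 in neurons. The progenitor populations overlapped (0.83 ± 0.44, limma adjusted p = 0.223), and neurons alone brought it through the filter, with a log2 change of 3.43 ± 0.44 over differentiating progenitors (limma adjusted p = 0.000145).

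Scn8a, the pore of mature nodes and initial segments, was well expressed at every stage. It had 991, 965 and 1075 normalised reads in proliferating progenitors, 1588, 1816 and 1831 in differentiating progenitors, then 4376, 4257 and 4012 in neurons. No library of one population reached another. Its log2 changes were 0.79 ± 0.09 (limma adjusted p = 0.000262) at the first step and 1.27 ± 0.09 (adjusted p = 2.16e-06) at the second.

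Scn11a had 109, 73 and 106 normalised reads in proliferating progenitors, 21, 18 and 15 in differentiating progenitors, then 22, 14 and 22 in neurons. Its fall was complete at the first step (log2 change -2.34 ± 0.28, limma adjusted p = 0.00037), and neurons and differentiating progenitors overlapped (0.08 ± 0.28, adjusted p = 0.834). Summed endothelial and mural, meningeal and red blood cell markers were also highest in proliferating progenitors, though not every single marker was. Over 11 endothelial and mural markers the sum was 600 to 1267 in proliferating progenitors, 343 to 380 in differentiating progenitors and 86 to 134 in neurons. Over 5 meningeal markers it was 221, 728 and 2947 by replicate, then 78 to 155, then 11 to 48. Over 6 red blood cell markers it was 16619 to 48433, then 53 to 486, then 37 to 173. The meningeal Dcn had 17, 27 and 49 in proliferating and 59, 66 and 62 in differentiating progenitors. Kdr overlapped between the progenitor populations, and Tagln was higher in every neuron library than in proliferating progenitors. Radial glia sums were also highest in proliferating progenitors, as were sums over 6 microglia markers (155 to 194, then 96 to 114, then 25 to 34). The part of any of these cell types in Scn11a was not tested.

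**Figure D2:**
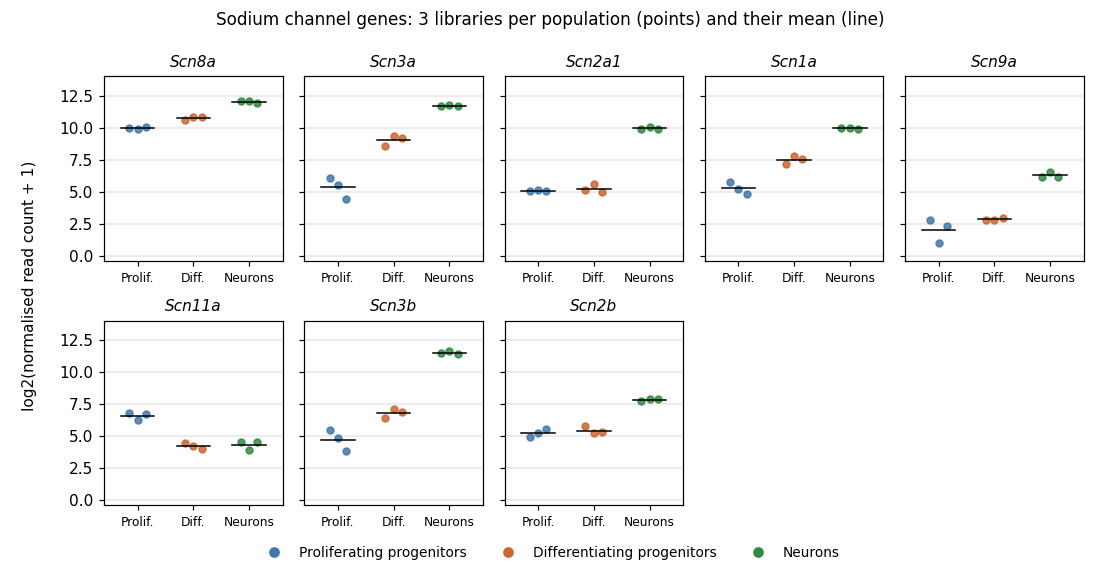
Log2 of the normalised read count plus 1 (vertical) for each sodium channel gene described here, in 3 libraries (points) of proliferating progenitors, differentiating progenitors and neurons (left to right), with the mean as a line. Scn3a and Scn1a climb at both steps, Scn2a1 only from differentiating progenitors on, and Scn11a goes down.

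The rising pores in the plot of sodium channel genes include a cluster on chromosome 2. In the GENCODE M21 annotation Scn3a and Scn2a lie next to each other on chromosome 2, and Scn1a and Scn9a lie next to each other beyond 3 other protein-coding genes, Csrnp3, Galnt3 and Ttc21b. The chromosome 2 pores also resemble one another in sequence. Of all 50-base runs in their transcripts, 4.03% (Scn1a), 4.04% (Scn9a), 5.63% (Scn2a1) and 6.49% (Scn3a) occurred in another channel gene, so reads in those stretches could be counted for a neighbour.

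The sodium channel beta subunits rose mainly in neurons. Scn3b, a partner of the pore in embryonic neurons, had 44, 28 and 13 normalised reads in proliferating progenitors, 84, 135 and 119 in differentiating progenitors, then 2887, 3096 and 2636 in neurons. Each population stood above the last. The log2 change was 2.08 ± 0.37 (limma adjusted p = 0.00365) at the first step and 4.68 ± 0.37 (adjusted p = 6.04e-06) at the second.

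Scn2b, which forms a disulphide bond with the pore, had 29, 36 and 45 normalised reads in proliferating progenitors, 53, 36 and 38 in differentiating progenitors, then 207, 239 and 241 in neurons. Progenitor libraries overlapped (0.20 ± 0.23, limma adjusted p = 0.598), while neurons were higher than differentiating progenitors by 2.43 ± 0.23 (adjusted p = 1.68e-05). Scn4b did not pass the filter, with at most 10 in any library.

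Calcium channel pores of the P/Q, N and R types, which serve transmitter release in mature neurons, rose at both steps and mostly in neurons. Cacna1e, the R-type pore, had 75, 90 and 97 normalised reads in proliferating progenitors, 113, 127 and 146 in differentiating progenitors, then 6370, 8225 and 7644 in neurons. Differentiating progenitors reached 1.74% of the neuronal mean. The log2 change between neurons and differentiating progenitors was 5.84 ± 0.15 (limma adjusted p = 4.22e-08), while that between differentiating and proliferating progenitors was 0.55 ± 0.15 (adjusted p = 0.0259). The small first rise was lost without proliferating progenitor replicate 1 (adjusted p = 0.0703) or 2 (0.0596) and without differentiating progenitor replicate 2 (0.0713) or 3 (0.0938), and in a fit of the 2 progenitor populations alone (0.0817).

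Cacna1b, the N-type pore, had 73, 36 and 57 normalised reads in proliferating progenitors, 115, 205 and 195 in differentiating progenitors, then 3551, 4988 and 4534 in neurons. It stood at 3.94% of the neuronal mean in differentiating progenitors. Its log2 changes were 1.63 ± 0.30 (limma adjusted p = 0.00388) and then 4.69 ± 0.30 (adjusted p = 1.39e-06).

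Cacna1a, the P/Q-type pore, had 134, 137 and 156 normalised reads in proliferating progenitors, 247, 348 and 463 in differentiating progenitors, then 1761, 2756 and 2926 in neurons. Its rise was spread more evenly, with 14.2% of the neuronal mean reached in differentiating progenitors. The changes were 1.26 ± 0.25 (limma adjusted p = 0.00621) and then 2.82 ± 0.25 (adjusted p = 1.26e-05).

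The L-type pores, which couple calcium entry to transcription in neurons, held 2 genes that rose at both steps and 1 with a peak in the middle population. Cacna1c had 205, 264 and 369 normalised reads in proliferating progenitors, 391, 505 and 521 in differentiating progenitors, then 2492, 3431 and 3031 in neurons. Its libraries separated by population. Neurons were higher than differentiating progenitors by 2.66 ± 0.22 (limma adjusted p = 7.49e-06), and differentiating were higher than proliferating progenitors by 0.79 ± 0.22 (adjusted p = 0.029). This first-step call did not hold without proliferating progenitor replicate 1 (adjusted p = 0.0721) or 2 (0.0851), and without differentiating progenitor replicate 2 (0.0993) or 3 (0.0998), nor in a fit of the 2 progenitor populations alone (0.053).

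Cacna1d had 129, 119 and 127 normalised reads in proliferating progenitors, 226, 383 and 348 in differentiating progenitors, then 1504, 2214 and 1867 in neurons. No populations overlapped, and its log2 changes were 1.31 ± 0.21 (limma adjusted p = 0.00196) and then 2.56 ± 0.21 (adjusted p = 7.05e-06).

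Cacna1s encodes the L-type pore known from skeletal muscle, where it is the voltage sensor for contraction. It had 1, 1 and 0 normalised reads in proliferating progenitors, 22, 40 and 31 in differentiating progenitors, then 15, 2 and 4 in neurons. Every differentiating progenitor library was above every library of the flanking populations. The log2 change was 4.29 ± 0.62 (limma adjusted p = 0.00116) between differentiating and proliferating progenitors, a value that depends on the pseudocount because proliferating progenitors were near 0. Between neurons and differentiating progenitors it was -2.32 ± 0.62 (adjusted p = 0.0109). Of the tested channel genes 1, Cacna1s, was called highest in differentiating progenitors (2.2% of all tested genes were). It passed the filter only through that population, so the call was built in and nothing is read from the count. In the limma fit 0 were called lowest there (2.51% of all), with 1 at an unadjusted p under 0.05 in both comparisons. The higher level in neurons than in proliferating progenitors (1.97 ± 0.62, adjusted p = 0.0203) was lost without proliferating progenitor replicate 3 (adjusted p = 0.0716), without neuron replicate 1 (0.0578) and with a pseudocount of 8 (0.0796).

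Of 7 skeletal muscle markers 3 were found by symbol, and their sum was 523 to 795 in proliferating progenitors, 665 to 1185 in differentiating progenitors and 2308 to 2967 in neurons. The defining gene Myh3 had 6, 3 and 0 normalised reads in proliferating progenitors, 6, 7 and 10 in differentiating progenitors, then 9, 5 and 6 in neurons, and Acta1 had at most 13 in any library. Nearly all of the sum was Ryr1, the muscle calcium release channel, with 517, 750 and 790 in proliferating progenitors, 657, 1174 and 1151 in differentiating progenitors, then 2297, 2944 and 2948 in neurons. The part of muscle cells in the Cacna1s level was not tested. The Cacna1s exons overlap those of Gm37759 on the opposite strand in GENCODE M21. Libraries were strand-specific per the labels, but whether the counting used strand is not stated in those sources, so reads of the 2 genes may not have been told apart. The levels are low, and replicates 2 and 3 alone left the gene under the filter.

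T-type pores, which open near rest and shape bursting, were the most abundant calcium pore class per length in progenitors. Cacna1h had 564, 499 and 720 normalised reads in proliferating progenitors, 1383, 1759 and 2024 in differentiating progenitors, then 7690, 8731 and 8574 in neurons. All populations were apart. It rose by 1.53 ± 0.17 (limma adjusted p = 0.000245) and then by 2.29 ± 0.17 (adjusted p = 3.32e-06) on the log2 scale.

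Cacna1g had 436, 737 and 1016 normalised reads in proliferating progenitors, 1458, 1125 and 1619 in differentiating progenitors, then 2037, 2981 and 2987 in neurons. Its libraries did not overlap between populations but spread widely within them. The changes were 1.01 ± 0.29 (limma adjusted p = 0.0355) between differentiating and proliferating progenitors and 0.92 ± 0.29 (adjusted p = 0.0249) between neurons and differentiating progenitors. The first-step call was lost without proliferating progenitor replicate 1 (adjusted p = 0.0676) or 2 (0.0787), without differentiating progenitor replicate 1 (0.0725), 2 (0.0508) or 3 (0.119), and without neuron replicate 2 (0.0518) or 3 (0.0513). The second-step call was lost without differentiating progenitor replicate 2 (adjusted p = 0.088) and without neuron replicate 2 (0.0825) or 3 (0.0828). Equal totals also ended the second-step call (0.0674), and a fit without the intensity trend (0.0556) or with only the 2 populations compared (0.0551) ended the first.

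Cacna1i, the third T-type pore, had 1, 1 and 4 normalised reads in proliferating progenitors, 9, 11 and 8 in differentiating progenitors, then 405, 623 and 552 in neurons. It was near the floor in progenitors, and neurons exceeded differentiating progenitors by 5.66 ± 0.39 (limma adjusted p = 2.23e-06). That call was built in, because Cacna1i passed the filter only through neurons. Differentiating exceeded proliferating progenitors by 1.92 ± 0.39 (adjusted p = 0.00653) at these low values.

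**Figure D3:**
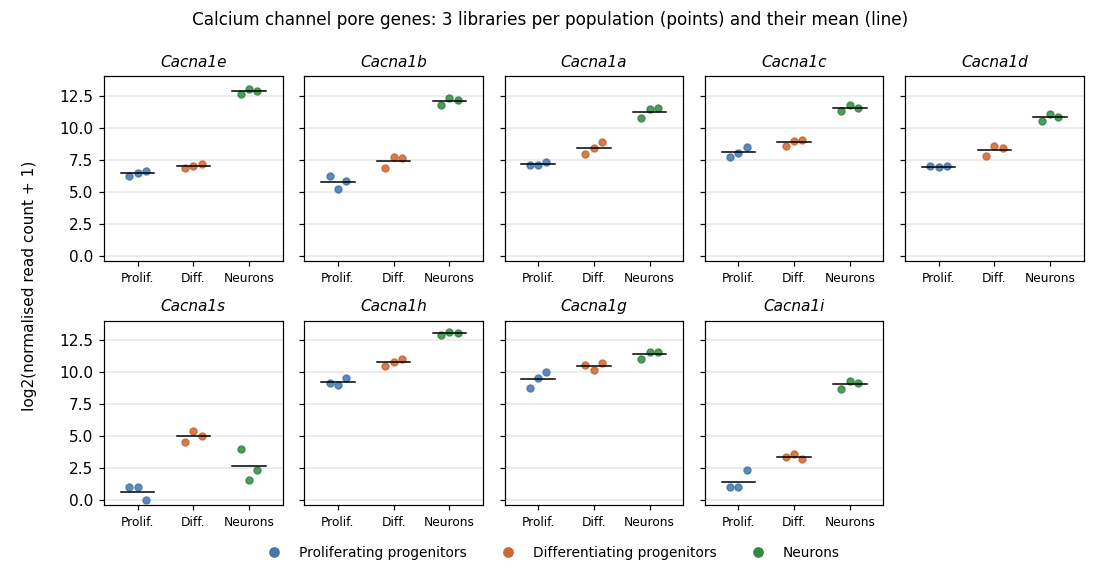
Log2 of the normalised read count plus 1 (vertical) for each tested calcium channel pore gene, in 3 libraries (points) of proliferating progenitors, differentiating progenitors and neurons (left to right), with the mean as a line. Cacna1e, Cacna1b and Cacna1i climb mainly into neurons, Cacna1g rises by small steps, and Cacna1s peaks in the middle at 22 to 40 normalised reads.

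The plot of pore genes by library shows that the spread between replicates was widest for the low Cacna1s and Cacna1i and for Cacna1g in proliferating progenitors. Cacna1f, the retinal L-type pore, did not pass the filter and had at most 6 normalised reads.

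Alpha2delta subunits, which carry pores to the membrane, rose at both steps for 3 genes. Cacna2d1 had 651, 584 and 650 normalised reads in proliferating progenitors, 1977, 3358 and 3740 in differentiating progenitors, then 4479, 4735 and 5491 in neurons. Differentiating progenitors reached 61.7% of the neuronal mean. The log2 change was 2.22 ± 0.21 (limma adjusted p = 0.000128) at the first step and 0.74 ± 0.21 (adjusted p = 0.0148) at the second, where it missed the threshold without neuron replicate 3 (adjusted p = 0.057) and when libraries were scaled to equal totals (0.0569).

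Cacna2d2 had 137, 122 and 103 normalised reads in proliferating progenitors, 339, 576 and 608 in differentiating progenitors, then 1150, 1451 and 1340 in neurons. Cacna2d3 had 3, 5 and 14 in proliferating progenitors, 48, 99 and 103 in differentiating progenitors, then 226, 538 and 437 in neurons. Both separated all 3 populations. For Cacna2d2 the changes were 2.03 ± 0.22 (limma adjusted p = 0.000264) and then 1.41 ± 0.22 (adjusted p = 0.000544). For Cacna2d3 they were 3.49 ± 0.53 (adjusted p = 0.0016) and then 2.24 ± 0.53 (adjusted p = 0.0061). Replicate 1 was lowest of the differentiating progenitor libraries for all 3 genes. It was also lowest for other rising channel genes, among them Scn3a, Scn1a, Scn3b, Cacna1a, Cacna1b, Cacna1d and Cacna1h, but not for Cacna1g, Scn2a1 or Cacng4. That library had the highest radial glia sum of its population (69360, against 47491 and 46275), and the part of this in these levels was not tested. Cacna2d4, known from the retina, had at most 4 normalised reads and was not tested.

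Calcium channel beta subunits, which bind the pore inside the cell, rose for 3 genes and fell for 1. Cacnb3 had 967, 1100 and 1206 normalised reads in proliferating progenitors, 1612, 1811 and 1813 in differentiating progenitors, then 6697, 7183 and 6638 in neurons. Cacnb1, best known from muscle, had 495, 486 and 565, then 701, 712 and 794, then 2563, 2386 and 2335 in the same order of stages. Cacnb4, a cerebellar and thalamic beta subunit, had 122, 117 and 121, then 179, 220 and 204, then 1229, 1336 and 1442. All 3 separated the populations with little spread. The changes between neurons and differentiating progenitors were 1.97 ± 0.10 for Cacnb3 (limma adjusted p = 3.54e-07), 1.72 ± 0.09 for Cacnb1 (adjusted p = 6.17e-07) and 2.73 ± 0.12 for Cacnb4 (adjusted p = 1.7e-07). Between differentiating and proliferating progenitors they were 0.68 ± 0.10 (adjusted p = 0.00112), 0.51 ± 0.09 (adjusted p = 0.00413) and 0.73 ± 0.12 (adjusted p = 0.00196) for the same genes.

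Cacnb2, the main cardiac beta subunit, had 229, 212 and 225 normalised reads in proliferating progenitors, 204, 136 and 217 in differentiating progenitors, then 87, 86 and 87 in neurons. The progenitor populations overlapped (log2 change -0.28 ± 0.18, limma adjusted p = 0.319), and neurons were below every progenitor library. Cacnb2 fell by 1.06 ± 0.18 between neurons and differentiating progenitors (adjusted p = 0.000932). Exons of Cacnb4 and Cacnb2 overlap genes on the opposite strand, A430018G15Rik for Cacnb4 and Gm10849, Gm10848 and Gm13269 for Cacnb2, with the same limit on strand as for Cacna1s. That limit holds for 10 channel genes, the others being Cacna1a, Cacna1d, Cacna1h, Cacna2d2, Cacnb1, Cacng2 and Scn9a. Exons of Cacng8 overlap those of Gm23450 on the same strand.

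Gamma genes, most of which serve AMPA receptors, took several courses. Cacng7 and Cacng4 were abundant in progenitors already. Cacng7 had 2397, 2253 and 2328 normalised reads in proliferating progenitors, 2189, 1992 and 1962 in differentiating progenitors, then 2796, 2992 and 2649 in neurons. The differentiating progenitor libraries were lowest and did not overlap with either neighbour, yet the first difference did not pass (-0.19 ± 0.08, limma adjusted p = 0.131) unless libraries of the same replicate number were paired (adjusted p = 0.0263) or scaled to equal totals (0.0459). Neurons exceeded differentiating progenitors by 0.46 ± 0.08 (adjusted p = 0.000967) and proliferating progenitors by 0.27 ± 0.08 (adjusted p = 0.0139). The call against proliferating progenitors was lost without neuron replicate 2 (adjusted p = 0.0623) and turned to -0.02 (adjusted p = 0.881) when libraries were scaled to equal totals.

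Cacng4 had 1843, 1555 and 1490 normalised reads in proliferating progenitors, 1662, 1129 and 1077 in differentiating progenitors, then 4073, 3636 and 3440 in neurons. The progenitors overlapped through differentiating progenitor replicate 1 (-0.36 ± 0.17, limma adjusted p = 0.16). The difference passed with paired replicates (adjusted p = 0.00425), without that library (0.00959) and in replicates 2 and 3 alone (0.00143). With the pairing, both Cacng4 and Cacng7 were called lowest in differentiating progenitors. Neurons stood above differentiating progenitors by 1.55 ± 0.17 (adjusted p = 4.32e-05). In the authors' deposited table the adjusted p between differentiating and proliferating progenitors was 0.26 for Cacng4 and 0.78 for Cacng7.

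Cacng8 had 44, 64 and 48 normalised reads in proliferating progenitors, 33, 58 and 37 in differentiating progenitors, then 250, 308 and 261 in neurons. Progenitors overlapped (-0.30 ± 0.25, limma adjusted p = 0.445) and neurons were higher than differentiating progenitors by 2.69 ± 0.25 (adjusted p = 1.55e-05). Cacng2, the founding AMPA receptor regulator known as stargazin, had 7, 1 and 1, then 20, 5 and 13, then 666, 544 and 639. It rose by 5.67 ± 0.61 between neurons and differentiating progenitors (adjusted p = 4.18e-05), a call built in because Cacng2 passed the filter only through neurons.

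The difference of Cacng2 between progenitor stages was 1.93 ± 0.61 (limma adjusted p = 0.0465), with overlapping libraries. It missed the threshold without proliferating progenitor replicate 2 (adjusted p = 0.15) or 3 (0.148), without differentiating progenitor replicate 1 (0.117) or 3 (0.129), and without neuron replicate 1 (0.0581), 2 (0.0722) or 3 (0.0724). It was also lost with a pseudocount of 8 (0.0663), no filter (0.0534), equal totals (0.0537) and no intensity trend (0.0593). Cacng3 had 3, 0 and 0 normalised reads in proliferating progenitors, was listed at 0 in every differentiating progenitor library, and had 60, 76 and 68 in neurons (adjusted p = 1.36e-05 between neurons and differentiating progenitors). It was thus present in neurons alone among the 3 populations at more than 3 normalised reads. Neurons alone brought Cacng3 through the filter, so that call was built in.

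Cacng5 went the other way, with 119, 162 and 93 normalised reads in proliferating progenitors, 135, 248 and 164 in differentiating progenitors, then 30, 23 and 25 in neurons. The progenitor populations overlapped (0.53 ± 0.28, limma adjusted p = 0.213), and neurons lay below all of them. Cacng5 fell by 2.72 ± 0.28 between neurons and differentiating progenitors (adjusted p = 3.2e-05). It lies beside Cacng4 on chromosome 11, which rose at the same step, and Cacng7 and Cacng8 are neighbours on chromosome 7. Cacng1, the muscle gamma subunit, reached at most 14, Cacng6 at most 2 and the muscle sodium pore Scn4a at most 1, and none was tested.

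**Figure D4:**
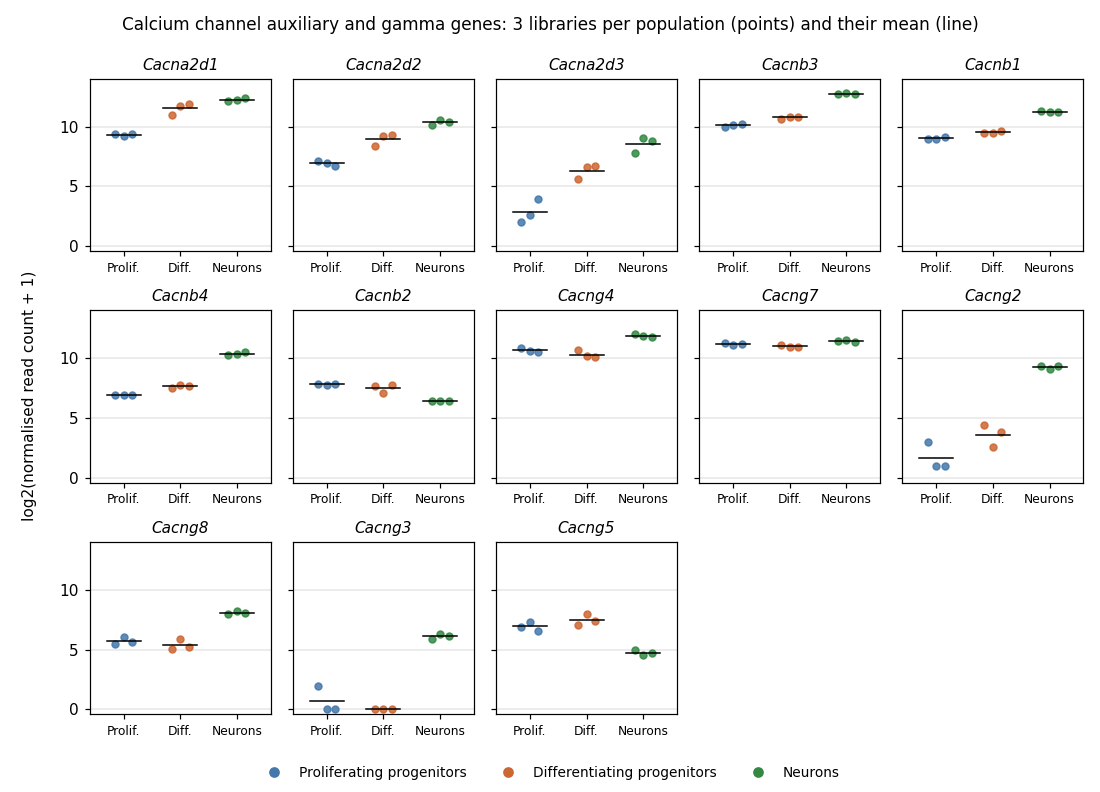
Log2 of the normalised read count plus 1 (vertical) for each tested alpha2delta, beta and gamma gene, in 3 libraries (points) of proliferating progenitors, differentiating progenitors and neurons (left to right), with the mean as a line. The alpha2delta genes climb at both steps, Cacng7 stays between 1962 and 2992 normalised reads throughout, and Cacnb2 and Cacng5 drop in neurons.

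The plot of auxiliary genes shows that falling members were few: of alpha2delta, beta and gamma genes only Cacnb2 and Cacng5 fell into neurons. The timing of change was then compared gene by gene as the difference between the second and the first log2 change, a limma test added after the values were seen. The second change exceeded the first by 5.28 ± 0.26 for Cacna1e (adjusted p = 6.11e-06), by 4.53 ± 0.33 for Scn2a1 (adjusted p = 2.02e-05) and by 1.99 ± 0.20 for Cacnb4 (adjusted p = 0.000103). For Scn3b it exceeded the first by 2.6 ± 0.65 (adjusted p = 0.0139), a call lost without differentiating progenitor replicate 1 (0.0551).

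For Cacna2d1 the order was reversed. The second change was smaller than the first by a log2 difference of -1.47 ± 0.37 (limma adjusted p = 0.0139), lost without differentiating progenitor replicate 2 (0.067) or 3 (0.0673). Scn3a had a difference of -1.0 ± 0.63 that did not pass (adjusted p = 0.28), except in replicates 2 and 3 alone (0.0166).

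Within each class, levels per kilobase of exon show which gene supplied most of the RNA. With the deposited lengths, Scn8a held 51.9 ± 3.2%, 60.6 ± 1.2% and 44.1 ± 1.5% (SD, n = 3 each) of the sodium pore class over the stages, the leading share at each. Scn3a held 31.2 ± 1.0% in neurons, against 2.0 ± 1.0% in proliferating progenitors. With GENCODE M21 lengths the lead of Scn8a in neurons was lost, with 37.7 ± 1.1% for Scn3a and 37.0 ± 1.4% for Scn8a, values within each other's spread. Among P/Q-, N- and R-type pores, Cacna1a held 50.1 ± 3.0% in proliferating and 52.6 ± 3.5% in differentiating progenitors. In neurons Cacna1e held 47.3 ± 2.0%, Cacna1b 35.3 ± 0.7% and Cacna1a 17.4 ± 2.1%. The neuronal lead depends on the exon length used. With GENCODE M21 lengths Cacna1b led in neurons with 46.2 ± 1.1% and Cacna1e held 31.1 ± 1.7%.

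Among T-type pores, Cacna1g held 53.2 ± 8.9% in proliferating progenitors, where Cacna1h held 46.6 ± 9.0%, a difference within the spread of replicates. Cacna1h then held 55.5 ± 6.1% in differentiating progenitors and 72.9 ± 2.9% in neurons. Cacna2d1 supplied 77.1 ± 1.3%, 77.1 ± 0.5% and 64.4 ± 4.5% of the alpha2delta class over the stages. Cacnb3 supplied 69.7 ± 1.8%, 73.2 ± 1.3% and 75.9 ± 1.0% of the beta class. Over all 38 genes, Cacng7 ranked first per kilobase in both progenitor populations and Cacnb3 ranked first in neurons.

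**Figure D5:**
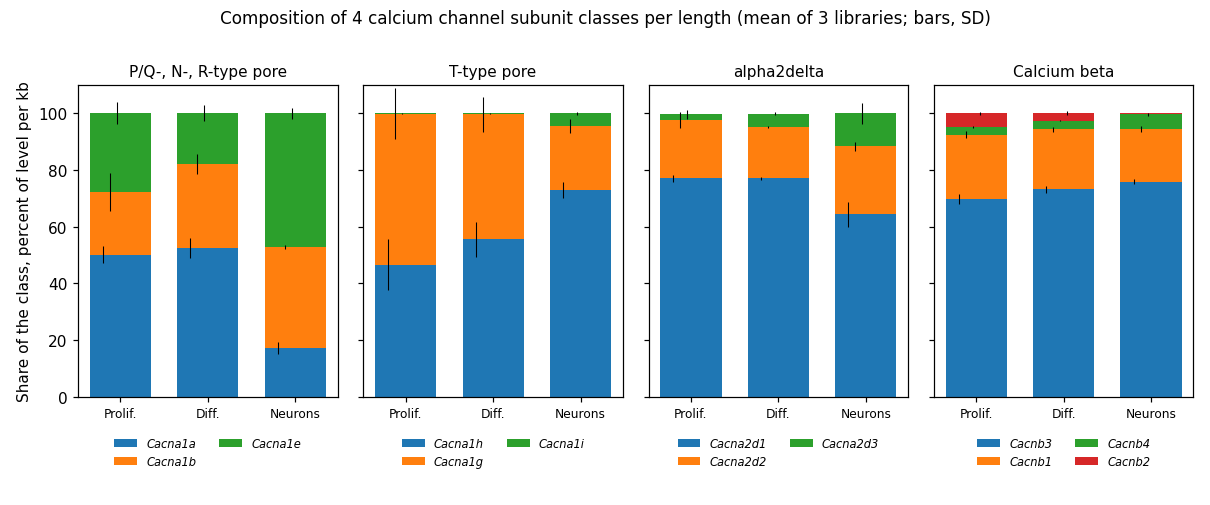
Share of each gene in its calcium channel subunit class (vertical, percent of the summed level per kilobase of exon) in proliferating progenitors, differentiating progenitors and neurons (left to right), as the mean of 3 libraries with SD bars at the top of each segment. Genes under 1% at every stage are left out. Cacna1h grows among T-type pores, and Cacna1e and Cacna1b replace Cacna1a as the largest parts of their class in neurons.

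The plot of class shares shows a change of composition on top of a change of amount. The summed level per kilobase of the P/Q-, N- and R-type class was 25.0, 22.7 and 27.0 in proliferating progenitors, 42.1, 61.1 and 71.7 in differentiating progenitors, then 1013, 1391 and 1314 in neurons. That of the sodium pore class was 183, 158 and 188, then 233, 277 and 272, then 863, 897 and 834. The gamma class, in which the short deposited length of Cacng8 counts, was the largest in progenitors, with 1705, 1594 and 1569, then 1552, 1370 and 1293, and reached 2960, 2995 and 2726 in neurons.

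Partners of these channels were described from 4 lists chosen by role. Of 16 sodium channel partner genes, 5 rose and 4 fell between differentiating and proliferating progenitors, 13 rose and 1 fell between neurons and differentiating progenitors, and 11 rose and 2 fell between neurons and proliferating progenitors. Their median log2 changes were -0.02, 2.05 and 2.09. Over all tested genes, 13.8% rose and 11.1% fell in the first of these comparisons, 27.6% and 26.4% in the second, and 32.2% and 31.1% in the last, with medians of -0.02, -0.01 and -0.02. The axon initial segment scaffold Ank3 had 287, 275 and 190 normalised reads in proliferating progenitors, 1147, 2084 and 1592 in differentiating progenitors, then 14819, 17629 and 15862 in neurons. It rose at both steps, by 2.66 ± 0.22 (limma adjusted p = 6.81e-05) and then 3.36 ± 0.22 (adjusted p = 1.92e-06), and so did the adhesion molecule Nfasc, by 1.64 ± 0.11 (adjusted p = 2.47e-05) and then 2.46 ± 0.11 (adjusted p = 1.86e-07). The scaffolds Ank2 and Sptbn1 rose at the second step, by 2.14 ± 0.10 (adjusted p = 2.34e-07) and 1.96 ± 0.09 (adjusted p = 2.76e-07). At the first step Ank2 fell by 0.49 ± 0.10 (adjusted p = 0.00614), while Sptbn1 had a change of -0.25 ± 0.09 (adjusted p = 0.0801), which passed with paired replicates (0.0119), in replicates 2 and 3 alone (0.0194) and with equal totals (0.0229).

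Of 21 calcium channel partner genes 19 were tested. At the first step 7 rose and 4 fell (median 0.36), at the second 13 rose and 3 fell (median 0.93), and between neurons and proliferating progenitors 13 rose and 5 fell (median 0.84). Over all tested genes 13.8% rose and 11.1% fell at the first step, 27.6% and 26.4% at the second, and 32.2% and 31.1% between neurons and proliferating progenitors. Camk2b, a calcium/calmodulin kinase subunit, had 24, 16 and 13 normalised reads in proliferating progenitors, 44, 87 and 76 in differentiating progenitors, then 2694, 3948 and 3703 in neurons. Its second-step change was 5.66 ± 0.30 (limma adjusted p = 5.38e-07). Cabp1, a neuronal calcium sensor, rose by 2.71 ± 0.21 (adjusted p = 5.34e-05) and then 2.50 ± 0.21 (adjusted p = 9.77e-06). Stac2, an adaptor of L-type channels, had 233, 285 and 271 normalised reads in neurons, against 5, 11 and 7 in differentiating progenitors (adjusted p = 1.8e-06). Stac2 passed the filter only through neurons, so that call was built in and adds nothing to the counts. The active zone organiser Rims1 had no passing first step (0.36 ± 0.20, adjusted p = 0.24, with paired replicates 0.0432) and rose by 3.67 ± 0.20 (adjusted p = 5.83e-07) at the second.

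The sodium leak channel complex, a voltage-insensitive relative that sets resting potential, had 4 of 5 listed genes in the table. All 4 rose between neurons and differentiating progenitors (median 2.1), 3 rose between neurons and proliferating progenitors (median 2.59), and 1 rose between differentiating and proliferating progenitors (median 0.41). Over all tested genes the shares that rose were 27.6%, 32.2% and 13.8% in that order. The pore gene Nalcn had 96, 124 and 111 normalised reads in proliferating progenitors, 70, 72 and 75 in differentiating progenitors, then 116, 190 and 142 in neurons. Differentiating progenitors were lowest, with a first-step change of -0.60 ± 0.20 that did not pass (limma adjusted p = 0.0623) and a second-step rise of 1.01 ± 0.20 (adjusted p = 0.00234). The first-step change of Nalcn passed with paired replicates (adjusted p = 0.0106), in replicates 2 and 3 alone (0.0242), with equal totals (0.0347) and without neuron replicate 1 (0.0425) or 2 (0.042). The accessory Unc79 rose at both steps, by 2.64 ± 0.24 (adjusted p = 0.000107) and 3.21 ± 0.24 (adjusted p = 4.32e-06). At the first step Fam155a (0.88 ± 0.30) did not pass (adjusted p = 0.0591) but did with paired replicates (0.0328), in replicates 2 and 3 alone (0.0282), without the intensity trend (0.0435) and without proliferating progenitor replicate 1 (0.0323). Fam155a rose at the second step by 3.57 ± 0.30 (adjusted p = 7.71e-06) and Unc80 by 0.78 ± 0.21 (adjusted p = 0.0102).

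Of 26 genes for calcium stores, calcium clearance and the sodium pump, 6 rose and 2 fell at the first step (median 0.03), 15 rose and 3 fell at the second (median 1.02), and 17 rose and 4 fell between neurons and proliferating progenitors (median 1.53). Over all tested genes 13.8% rose and 11.1% fell at the first step, 27.6% and 26.4% at the second and 32.2% and 31.1% in the last comparison. Atp2a3, 1 of the genes that fell at the first step, had 15, 13 and 23 normalised reads in proliferating progenitors and at most 4 elsewhere. It passed the filter only through proliferating progenitors, so its falls were built in and add nothing to the counts. The exchangers Slc8a1 and Slc8a3, which remove calcium in return for sodium, rose at the second step by 3.75 ± 0.13 (limma adjusted p = 8.32e-08) and 4.67 ± 0.21 (adjusted p = 2.39e-07).

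Summed markers of other neuron types also rose over the stages. The sum over 10 interneuron markers was 1013, 256 and 90 in proliferating progenitors, 2953, 1441 and 455 in differentiating progenitors, then 9581, 8172 and 8399 in neurons. In progenitors the interneuron sum was highest in replicate 1 of each population. Over 6 Cajal-Retzius markers the sum was 717 to 902, then 1749 to 1987, then 17990 to 21057. Most of the proliferating progenitor sum was Cxcr4, which did not rise into neurons, with 599, 706 and 823, then 919, 799 and 816, then 618, 726 and 670. Most of the neuronal sum was Reln, with 15817, 18933 and 16829 there. Reln, Trp73, Lhx1, Lhx5 and Calb2 were all highest in neurons. The part of either cell type in the channel levels was not tested.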

How the data were processed

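The values used are the authors' deposited score: normalised read counts, rounded, 1 for each gene in each library. Gene models came from Ensembl version 61, per the file headers. The submitters' processing notes name build mm9 and the tools BWA, DESeq 1.8.1, bedtools 2.11 and CASAVA 1.8.0, with no roles. Whether the counting used strand was not stated in the sources used here. Each fold (a ratio of group means), adjusted p-value and gene length, another column in bases, was also deposited by the authors. The median ratio of the deposited length to the GENCODE M21 exon length was 1 over 19890 genes, but several channel genes were far shorter as deposited: Cacna1c (8817 against 21191 bases), Cacna1e (12696 against 25228), Cacna2d3 (3691 against 8720) and Cacng8 (663 against 2345). From the smallest steps in the values, depth was estimated at 12657785 to 27551358 reads per library, and no count model was fitted.

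Under R 4.3.3, limma 3.58.1 was fitted with a mean-variance trend to all 9 libraries at once, with 3 population means and 6 residual degrees of freedom. It used the filter, pseudocount and adjustment given with the results. Tables were handled with Python 3.11.15, numpy 2.4.6 and pandas 2.3.3. The fit was tested on simulated data. Channel genes, subunit classes and partner lists were chosen with earlier results of these data known. Some members of the counts are not reported here. The other channel genes that changed are given in every library, and up to 4 genes per partner list by smallest adjusted p. Other genes named complete a marker list, a reporter check, a limit of the filter or a neighbourhood.

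Libraries of the same replicate number deviated together from their population means (correlation 0.507 to 0.767 in 9 pairs, against -0.64 to 0.428 in the other 18 pairs), so replicate number was also fitted as a blocking term. Other alternatives changed the pseudocount, filter, scaling, trend and libraries used, or took the authors' adjusted p. Exon overlaps, neighbours and shared 50-base runs came from GENCODE M21, and promoters from RefSeq.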

Additional observations from a re-analysis of the deposited data

How the results depend on the processing

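Of 1763 recomputed log2 changes of the channel genes described, 1706 kept their direction and side of the threshold, 45 no longer passed, 5 newly passed and 7 turned sign, and of those 7 only Cacng7 passed in the first place. Its neuron change over proliferating progenitors was -0.0155 with libraries scaled to equal totals. The other sign changes were small: Scn2b at the first step in replicates 2 and 3 alone (-0.12), and Scn11a at the second step with equal totals (-0.12). Leaving out 1 library turned Scn2a1 at the first step (-0.0224 to 0.30) and Scn11a at the second (-0.0357 to 0.29). Equal totals moved the median of all genes to -0.09 at the first step, -0.23 at the second and -0.31 between neurons and proliferating progenitors. Calls over all genes were then 1880 higher and 2254 lower, 3353 and 5589, and 3869 and 6605, against 2186 and 1758, 4368 and 4183, and 5099 and 4924 as deposited.

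With replicate number as a block, 4 channel genes fell at the first step, 2 were lowest in differentiating progenitors, and the block changed no other channel call in the 3 comparisons. In the lists it gave 10 higher and 5 lower store, clearance and pump genes and 7 lower sodium partners at the first step, 6 lower store genes at the second, and 2 higher and 1 lower leak complex genes at the first. With the block, calls over all 15828 tested genes grew too, to 3793 higher and 3489 lower at the first step and 5661 and 5620 at the second. In replicates 2 and 3 alone, 2959 of 14897 tested genes were higher and 2651 lower at the first step. Leaving out 1 library gave 1 to 3 channel genes lower at the first step, 0 to 1 lowest in differentiating progenitors, 1 to 3 store genes lower, and 1 to 2 leak complex genes higher and 0 to 1 lower at the first step. Replicates 2 and 3 alone gave 0 channel genes highest and 1 lowest in differentiating progenitors, and 2 higher and 1 lower leak complex genes at the first step. A filter of at least 50 removed Cacna1s, leaving 0 highest, and gave 1 store gene lower at the first step. Equal totals gave 1 channel gene lowest, 5 and 7 store genes lower in neurons against differentiating and proliferating progenitors, 2 sodium partners lower at the second step and 1 leak gene lower at the first. Without the intensity trend 2 leak genes were higher at the first step.

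With GENCODE M21 lengths, over the 3 stages, Scn8a held 43.5%, 52.1% and 37.0% of its class (Scn3a 37.7% in neurons) and Cacnb3 65.3%, 68.6% and 71.1%, Cacna1a held 58.2% and 57.7% in progenitors and Cacna1e 31.1% in neurons. Cacna1c, Cacna1e, Cacna2d3, Cacng8 and Cacng6 have deposited lengths far below their annotated exons, so levels per length of these genes and their classes are uncertain. Causes of these shifts were not tested. The 3 libraries per population and single-digit values of Cacna1i, Cacng3 and Scn9a in progenitors limit the log2 changes of those genes.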
